A study of Mus musculus with 23 samples.

Results

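The GIMAP family (GTPases of immunity-associated proteins) was followed through 4 groups of mouse libraries labelled as group 2 innate lymphoid cells (ILC2s). Their markers, given below, did not bear out this label in every group. The members were taken by gene symbol, as all rows named Gimap1 and Gimap3 to Gimap9, which gave 8 of the 19945 genes in the table. RNA was sequenced from cells labelled as ILC2s that were transferred into mice with ischemic stroke, made by occlusion of the middle cerebral artery (MCAO). They were recovered from brain on day 5, from blood on day 5 and from blood on day 1, with 6 libraries per group, and were compared with 5 libraries of cells taken straight from culture, which the labels call base. Donors of all groups were male mice of 8 to 10 weeks, either transgenic B6.Cg-Tg(CAG-GFP)Smoc or wild type, that were given IL-33 into the peritoneum every 2 days for 7 days. Their bone marrow and spleen were depleted of cells with CD11b, Gr1, CD3ε, CD45R/B220 or Ter119 and enriched for CD25 on magnetic columns, then grown for 14 days with IL-33, IL-2, IL-15 and IL-7. Cells sorted as CD45+Lin-ST2+KLRG1+CD127+ were injected intravenously 6 h after MCAO. The sources used here do not say which donor genotype each library had, how cells were sorted on recovery, whether the culture libraries were taken after the final sort, or whether replicates came from separate animals, so p-values measure the spread between these libraries. By the labels, 11 libraries belong to batch 2 and 12 to batch 1, each with all 4 groups.

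GIMAP proteins are small GTP-binding proteins that sit largely on the membranes of intracellular organelles and are made mainly in lymphocytes. Loss of Gimap1 or Gimap5 in mice leaves few mature T and B cells, and Gimap5 takes its place in immunology from the lymphopenia of rats and mice that lack it. In mammals the genes stand together in 1 chromosomal cluster.

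In these data the cluster covered 123.6 kb of chromosome 6 (mm10, chr6:48647234-48770851), in the order Gimap8, Gimap9, Gimap4, Gimap6, Gimap7, Gimap1, Gimap5 and Gimap3. Gimap6 and Gimap3 lie on the minus strand and the other members on the plus strand. All 8 were matched in GENCODE M21 and in the RefSeq promoter table. The 250 bases before the RefSeq start (GRCm38.p6) are shown for Gimap4 and Gimap9, which differed most between blood and culture, for Gimap3, the leading member in culture, and for Gimap8, the only member not called between blood and culture. Capitals mark matches, on either strand, to the RUNX letters TGTGGT, the KLF letters CCACCC and the STAT letters TTCNNNGAA.
Gimap4, chr6:48684328-48684577, plus strand: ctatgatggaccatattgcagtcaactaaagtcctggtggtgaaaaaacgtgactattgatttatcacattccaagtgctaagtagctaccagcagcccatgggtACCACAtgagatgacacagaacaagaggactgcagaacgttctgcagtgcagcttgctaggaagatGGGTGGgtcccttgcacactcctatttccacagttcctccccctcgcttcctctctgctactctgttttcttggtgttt
Gimap9, chr6:48675885-48676134, plus strand: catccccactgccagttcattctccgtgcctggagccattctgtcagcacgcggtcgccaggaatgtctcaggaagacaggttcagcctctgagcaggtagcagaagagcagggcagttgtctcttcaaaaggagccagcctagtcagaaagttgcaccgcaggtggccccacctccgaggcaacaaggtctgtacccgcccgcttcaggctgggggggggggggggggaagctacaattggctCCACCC
Gimap3, chr6:48770852-48771101, minus strand: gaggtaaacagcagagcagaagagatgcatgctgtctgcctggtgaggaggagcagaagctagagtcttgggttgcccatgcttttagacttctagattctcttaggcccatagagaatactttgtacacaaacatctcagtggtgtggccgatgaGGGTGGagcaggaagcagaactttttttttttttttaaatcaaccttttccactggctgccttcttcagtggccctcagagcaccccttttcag
Gimap8, first listed start, chr6:48646984-48647233, plus strand: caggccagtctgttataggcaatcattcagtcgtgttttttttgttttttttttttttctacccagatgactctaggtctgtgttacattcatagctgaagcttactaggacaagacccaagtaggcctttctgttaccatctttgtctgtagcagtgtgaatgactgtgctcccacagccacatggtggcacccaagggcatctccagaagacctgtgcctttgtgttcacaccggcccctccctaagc
Gimap8, second listed start, chr6:48647111-48647360, plus strand: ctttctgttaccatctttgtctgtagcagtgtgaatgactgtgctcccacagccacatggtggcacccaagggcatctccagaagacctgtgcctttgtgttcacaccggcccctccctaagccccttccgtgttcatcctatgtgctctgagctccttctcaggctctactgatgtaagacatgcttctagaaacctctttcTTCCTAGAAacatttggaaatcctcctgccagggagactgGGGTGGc

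The windows of Gimap4, Gimap9 and Gimap3 and the second window of Gimap8 held the KLF letters. That of Gimap4 also held the RUNX letters and the second of Gimap8 the STAT letters, while the first Gimap8 window, which overlaps the second, held none of the 6 motifs searched. Over all windows of the 8 genes, KLF letters occurred in 5 genes, against 28.1% of 32851 mouse promoters of the same length. RUNX letters occurred in 3 genes, against 14% of promoters, and the STAT letters in 2 genes, against 7.02%. The ETS letters CCGGAA, the TCF/LEF letters CTTTGA and the GATA letters AGATAA were in none of the member windows, and in 12%, 13.8% and 9.99% of all promoters. Such matches describe the letters of these windows, not binding. The Gimap9 window was the most GC-rich of those shown, at 61.2% and 8 CpG, while the others held 46.8% to 52.0% and 1 to 3 CpG, against a median of 52.4% and 6 CpG over all promoters.

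Gimap3 and Gimap5 are near copies. Their coding sequences, of 903 and 924 bases, were identical at 90.7% of 895 aligned bases, and the longest run they share without a mismatch is 140 bases, shown as the longest stretch in which the 2 genes cannot be told apart.
Shared by Gimap3 and Gimap5, coding sequence, chromosome 6: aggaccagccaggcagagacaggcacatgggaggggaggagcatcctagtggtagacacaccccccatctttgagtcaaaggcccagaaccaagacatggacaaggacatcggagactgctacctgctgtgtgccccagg

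Their transcripts shared 190 stretches of 50 bases, 7.52% of those in Gimap3 and 4.53% of those in Gimap5, and no other member shared any with the family. At 150 bases, the length of an untrimmed read, no stretch was shared between any members, so only shorter, trimmed reads could match both genes without a mismatch. How the counting treated reads that align to both genes with mismatches is not stated. Gimap1 shares 1107 exonic bases with the antisense gene Gimap1os, and Gm28053, a gene that spans Gimap7, Gimap1 and Gimap5, shares 81, 198 and 153 exonic bases with them. Without a stated strand setting, Gimap1 and Gimap1os reads cannot be told apart over their overlap.

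Recovered reads per library were 11.6 to 58.1 M over all libraries, 27.8 to 58.1 M in batch 2 and 11.6 to 16.9 M in batch 1. The labelled cell type was checked against 12 ILC2 markers, of which 10 were in the table. They did not move together. Gata3, the master regulator of ILC2s, averaged 13.3 ± 8.29 normalized counts in brain libraries, 1588 ± 309 in blood on day 5, 1279 ± 588 in blood on day 1 (SD, n = 6 each) and 315 ± 190.3 in culture (SD, n = 5). Klrg1 averaged 9.40 in brain libraries, 10829 in blood on day 5, 6567 in blood on day 1 and 23914 in culture. Il2ra, which encodes CD25, averaged 7.06 in brain libraries, 129 in blood on day 5, 173 in blood on day 1 and 15251 in culture. Rora, a transcription factor that ILC2s need, averaged 1049 in brain libraries, 1019 in blood on day 5, 914 in blood on day 1 and 59.8 in culture. Ptprc, which encodes CD45, averaged 1595 in brain libraries and 16277 in culture. In cultured cells Il1rl1, which encodes ST2, averaged 1.08 ± 2.42 and Il7r, which encodes CD127, 24.5 ± 29.6 (SD, n = 5), although the cells sorted for transfer carried both proteins, and Il5 was at or near 0 in every group. Markers of other cells were also present. The 13 T cell markers summed to 215 to 554 normalized counts in brain libraries, 43510 to 86265 in blood on day 5, 60953 to 103034 in blood on day 1 and 106464 to 338822 in culture. The 8 microglial markers summed to 108583 to 369505 in brain libraries and 2493 to 7788 in culture. In bulk RNA, fewer cells of a type and less RNA per cell cannot be told apart. Earlier work on these data found blood day 1 replicates 2 and 6, brain replicate 2 and culture replicate 5 apart from their groups. Without these 4 libraries, 7 members were still called higher in blood on each day than in culture and 8 lower in brain than in blood, and between brain and culture 5 were called lower and 1 higher.

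Summed over the 8 members, GIMAP transcripts reached 834 ± 253 normalized counts in brain libraries, 84729 ± 22599 in blood on day 5, 98580 ± 14844 in blood on day 1 (SD, n = 6 each) and 6657 ± 2045 in culture (SD, n = 5). The summed levels ran from 460 to 1026 in brain libraries, 59747 to 115915 in blood on day 5, 69376 to 110774 in blood on day 1 and 4891 to 9173 in culture. Brain libraries lay below, and blood libraries above, every culture library, and both blood groups covered much the same range.

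**Figure D1:**
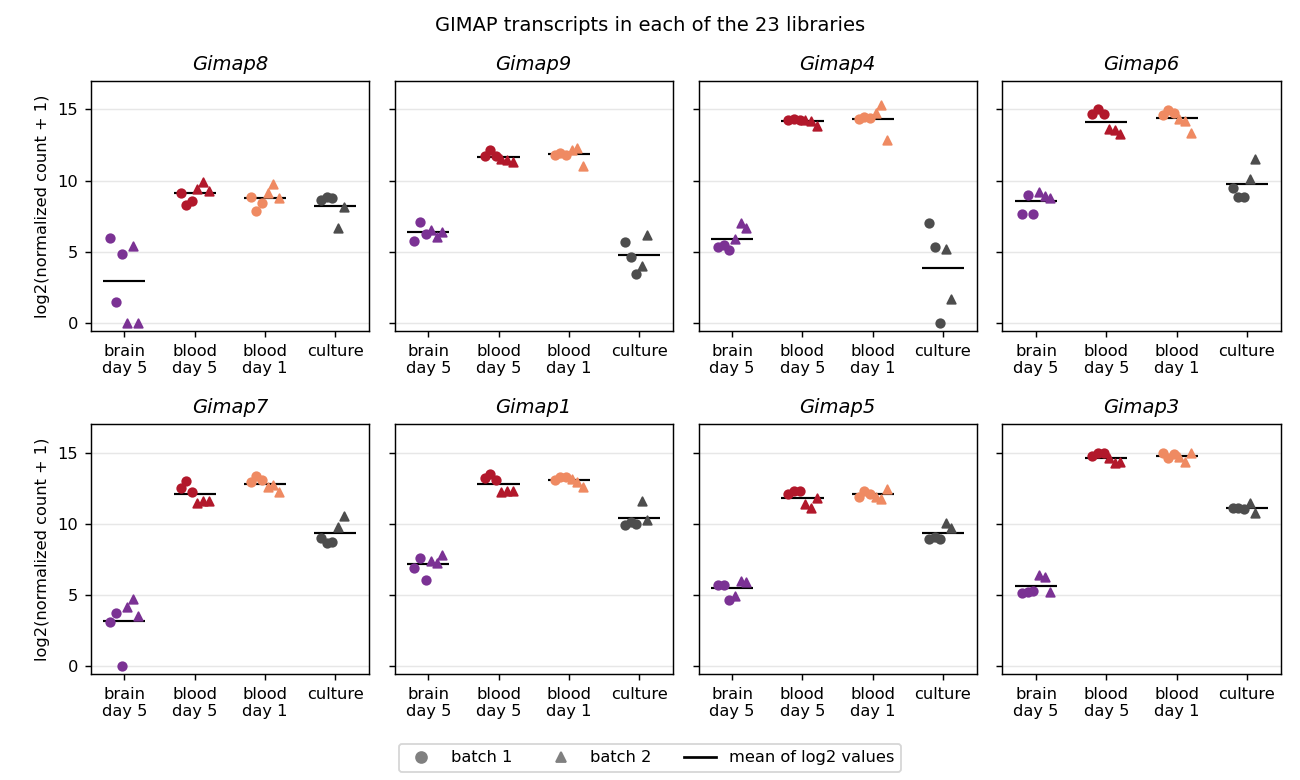
Level of each GIMAP member as log2(normalized count + 1) in brain day 5, blood day 5, blood day 1 and culture libraries, with 1 point per library (circles batch 1, triangles batch 2) and bars at the mean of the log2 values. Blood libraries form the upper group in every panel except that of Gimap8, where blood and culture overlap, and brain libraries are the lowest for Gimap8, Gimap7, Gimap1, Gimap5 and Gimap3.

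Blood libraries were first set against culture libraries. Besides time in the animal, these differ in cell markers, as given below. In blood 7 of the 8 members were called higher than in culture at both times by limma with Benjamini-Hochberg adjustment, and none was lower. In that direction 19.6% of the 15268 genes tested were called on day 5 and 18.1% on day 1. The same 7 members had every blood library above every culture library on both days, which held for 15.2% of genes on day 5 and 9.7% on day 1. The median log2 difference of the 8 members was 3.13 on day 5 and 3.56 on day 1, against 0.14 and 0.04 over all genes tested. Both comparisons share the culture libraries. Of the members, Gimap4 and Gimap9 were nearly silent in culture, while the other 5 that were called already averaged 678 (Gimap5) to 2197 (Gimap3) normalized counts there.

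Gimap4, which in mice affects the death of T cells, had 14904, 19428 and 21067 normalized counts in blood on day 5 (lowest, median and highest library) and 7215, 22298 and 39881 in blood on day 1, against 129.98, 38.4, 0, 35.2 and 2.22 in the 5 culture libraries. The lowest blood library thus stood far above the highest culture library, and 1 culture library had no Gimap4 read. Its log2 difference from culture was 10.35 ± 0.83 on day 5 (SE, limma, adjusted p = 2.01e-09) and 10.50 ± 0.83 on day 1 (adjusted p = 1.84e-09), on the log2(value + 1) scale. Culture held 148 Gimap4 reads over 5 libraries, so the size of this difference rests on few reads.

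Gimap9 showed the next largest difference. It had 2475, 3148 and 4594 normalized counts in blood on day 5 and 2070.1, 3792 and 5029.65 in blood on day 1, against 50.5, 23.7, 9.90, 14.9 and 70.2 in culture. All 12 blood libraries exceeded all 5 culture libraries. The log2 difference was 6.86 ± 0.41 on day 5 (SE, limma, adjusted p = 2.60e-11) and 7.06 ± 0.41 on day 1 (adjusted p = 1.84e-11).

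Gimap6, which takes part in autophagy with the partner protein Gabarapl2, had 9764, 19139 and 33068 normalized counts in blood on day 5 and 10389, 22746 and 32648 in blood on day 1, against 713, 451, 451, 1077 and 2976 in culture. Both the blood and the culture libraries of Gimap6 were spread widely, culture replicate 5 being the highest of its group. It rose by 4.38 ± 0.46 on day 5 (log2, SE, limma, adjusted p = 1.31e-07) and by 4.62 ± 0.46 on day 1 (adjusted p = 6.28e-08).

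Gimap3, a near copy of Gimap5, had 20084, 26343 and 32141 normalized counts in blood on day 5 and 20747, 28344 and 32793 in blood on day 1, against 2193, 2166, 2113, 2808 and 1705 in culture. All blood libraries lay far above the culture libraries, among which Gimap3 varied least of the 8 members, with a coefficient of variation of 18.0%. The log2 difference was 3.56 ± 0.25 on day 5 (SE, limma, adjusted p = 3.15e-10) and 3.67 ± 0.25 on day 1 (adjusted p = 2.32e-10).

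Gimap5, needed for lymphocyte survival, had 2152, 3959 and 5120.1 normalized counts in blood on day 5 and 3341, 4136 and 5514 in blood on day 1, against 484, 530, 477, 1080.1 and 821 in culture. Gimap1, needed by mature T and B cells in mice, had 4712, 6864 and 11445 in blood on day 5 and 6271, 8968 and 10139.6 in blood on day 1, against 984, 1111, 1000, 3171 and 1214 in culture. Gimap7, whose human form stimulates the GTPase activity of other family members, had 2836, 3969 and 8169 in blood on day 5 and 4814, 7330.1 and 10462 in blood on day 1, against 516, 398, 414, 888 and 1500.3 in culture. In all 3 the lowest blood library lay above the highest culture library. Gimap5 rose by 2.49 ± 0.31 on day 5 and 2.73 ± 0.31 on day 1, Gimap1 by 2.38 ± 0.34 and 2.68 ± 0.34, and Gimap7 by 2.69 ± 0.58 and 3.45 ± 0.58 (log2, SE), with limma adjusted p of at most 0.000843.

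Gimap8, which carries several GTP-binding domains where the other members have a single one, was the exception. It had 311, 588 and 938 normalized counts in blood on day 5 and 226, 448 and 884 in blood on day 1, against 394, 462, 426, 99.6 and 287 in culture. The ranges overlapped on both days. The log2 difference was 0.93 on day 5 (95% confidence interval -0.98 to 2.83, limma adjusted p = 0.504) and 0.63 on day 1 (-1.28 to 2.53, adjusted p = 0.651), and the interval on day 5 takes in the rise of Gimap5 on that day. Within batch 2 the differences on day 5 and day 1 were 2.11 and 1.82, and within batch 1 they were -0.08 and -0.38.

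**Figure D2:**
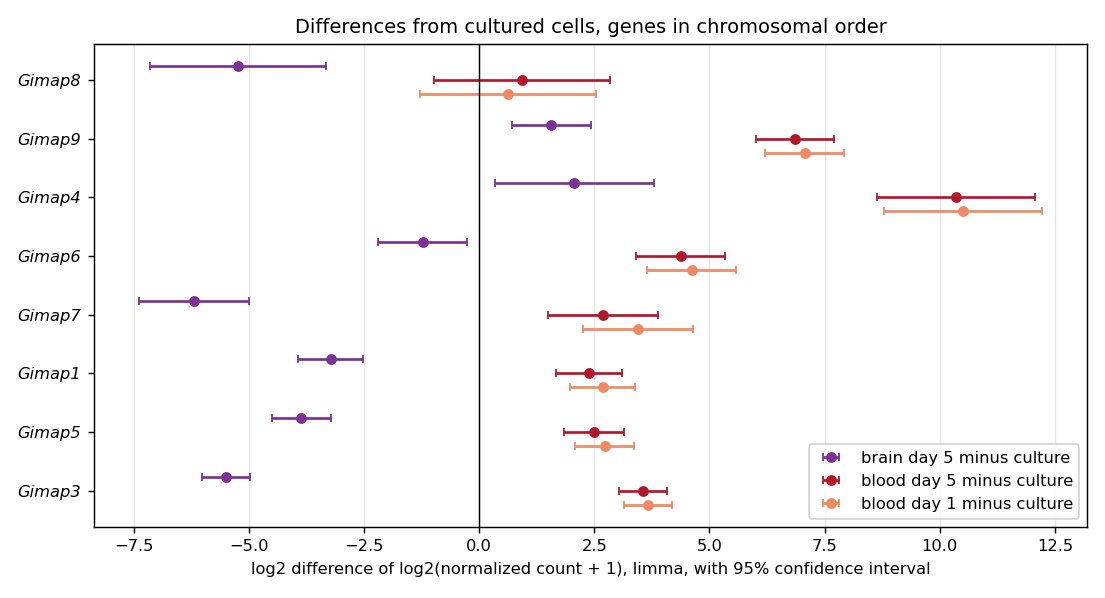
Log2 difference of each member from culture (limma, points) with its 95% confidence interval, genes from top to bottom in chromosomal order. Both blood groups lie to the right of 0 for all members but Gimap8, whose intervals cross 0, while the brain group lies to the left of 0 for 6 members and to the right for Gimap9 and Gimap4.

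B cell and platelet markers were higher in blood along with the members, while T cell and natural killer cell markers were split. Over all genes 19.6% were higher and 11.4% lower on day 5, and 18.1% higher and 14% lower on day 1. Of 10 B cell markers, 10 were called higher than in culture in blood on day 5 and 9 on day 1, with sums of 62462 to 196186 on day 5 and 55574 to 126551 on day 1, against 120 to 5569 in culture, where no marker was at 0 in all libraries. The 13 T cell markers were split, with 5 higher and 4 lower on day 5 and 5 higher and 2 lower on day 1. All 9 platelet markers were higher on both days. Of the 7 natural killer (NK) cell markers in the table, 4 were higher and 2 lower than in culture on each day. Ncr1, which encodes NKp46, averaged 17972 normalized counts in blood on day 5, 15346 in blood on day 1 and 3.52 in culture, while Prf1, which encodes perforin, averaged 30748 in blood on day 5, 19484 in blood on day 1 and 193941 in culture. The NK cell markers summed to 107341 to 457792 in blood on day 5, 124607 to 221978 in blood on day 1 and 530651 to 1956360 in culture. None was at 0 in all culture libraries. Gzma averaged 1406700 in culture and so made up most of the sum there. Eomes averaged 4871 in culture, while Klre1, Klrk1 and Klrb1c averaged 5.04, 14.6 and 252. The part of such cells in the GIMAP differences was not tested.

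Between the 2 times in blood no member was called, and only 0.105% of all genes were. The lack of calls thus does not set the family apart. The log2 differences, day 5 minus day 1, ran from -0.76 for Gimap7 to 0.30 for Gimap8, with a median of -0.22. None had an unadjusted p under 0.05 in limma, in edgeR's quasi-likelihood test or in DESeq2, and the lowest unadjusted limma p was 0.183. For Gimap3 the 95% confidence interval ran from -0.60 to 0.40 and for Gimap4 from -1.79 to 1.49, so a difference of over 2-fold was outside the interval for Gimap3 and inside it for Gimap4. The ranges of all 8 members overlapped between the days.

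Brain libraries were then set against blood libraries. These differ in tissue and also in cell markers, with Gata3 and Klrg1 low and microglial markers high in brain libraries. All 8 members were called lower in brain than in blood on day 5, where 14.3% of genes were lower, and all 8 lower than in blood on day 1, where 14.1% were. No brain library reached the lowest blood library for any member, a pattern met by 10.5% of genes against blood on day 5 and 7.07% against blood on day 1. The members' median was -6.26 on the log2 scale against blood on day 5 and -6.25 against blood on day 1, while over all genes it was 0.47 and 0.77. The 2 comparisons share the brain libraries. All 13 T cell markers and all 7 NK cell markers in the table were also called lower in brain than in blood on both days, the NK cell markers with sums of 59.6 to 447 normalized counts in brain libraries, and the part of such cells in the GIMAP differences was not tested.

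Gimap3, one of the 2 most abundant members in blood, had 33.6, 37.2 and 84.7 normalized counts in brain libraries (lowest, median and highest). Those 6 libraries held 458 Gimap3 reads, against 204265 in the 6 libraries from blood on day 5. Its log2 difference, brain minus blood on day 5, was -9.06 ± 0.24 (SE, limma, adjusted p = 9.12e-18), the most negative of the 8. Gimap7 had 0, 11.1 and 24.7 normalized counts in brain libraries, with 117 reads in all, and differed by -8.88 ± 0.55 (adjusted p = 5.11e-12). Gimap4 had 34.4, 50.5 and 126 in brain libraries and differed by -8.29 ± 0.79 (adjusted p = 7.24e-09).

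Gimap6 kept the highest level in brain libraries, with 196, 458 and 575 normalized counts, and differed from blood on day 5 by -5.60 ± 0.44 (log2, SE, limma, adjusted p = 3.26e-10). Gimap9 had 52.3, 79.0 and 136 and the smallest difference, -5.29 ± 0.39 (adjusted p = 9.28e-11). Gimap1 had 65.4, 160.1 and 222 in brain libraries, Gimap5 24.1, 49.9 and 61.3, and Gimap8 0, 14.6 and 61.6. Against blood on day 5 Gimap1 differed by -5.61, Gimap5 by -6.36 and Gimap8 by -6.16, with limma adjusted p of at most 2.99e-06. Within each batch all 8 members were lower in brain libraries than in blood on day 5, by -4.52 to -10.32 on the log2 scale.

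Brain libraries were also set against culture. Here 6 members were called lower, against 11.7% of genes, and 2 higher, Gimap9 and Gimap4, against 37.5%. The 2 higher calls are a smaller share than over all genes, and edgeR called no member higher. Of the 6, 5 lay wholly below culture, a pattern met by 7.27% of genes. Gimap7 fell by 6.19 ± 0.58 on the log2 scale (SE, limma, adjusted p = 4.63e-09), Gimap3 by 5.50 ± 0.25 (adjusted p = 4.03e-14), Gimap8 by 5.23 ± 0.92 (adjusted p = 4.26e-05), Gimap5 by 3.86 ± 0.31 (adjusted p = 3.57e-10) and Gimap1 by 3.22 ± 0.34 (adjusted p = 3.41e-08). Their directions were the same in both batches. Over all genes the median log2 difference here was 0.67 with the authors' scaling, 0.62 with equal library totals and 0.31 with TMM factors. Relative to the median gene, the fall of these 5 members was thus larger than printed, and the rise of Gimap9 and Gimap4 smaller.

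The other 3 members, Gimap6, Gimap9 and Gimap4, are neighbours in the cluster, and each overlapped between brain and culture. Gimap6 averaged 401 ± 163 normalized counts in brain libraries (SD, n = 6) and 1133 ± 1061 in culture (SD, n = 5), a log2 difference of -1.22 ± 0.46 (limma, adjusted p = 0.0326). Culture replicate 5 decided much of it, since without that library the difference was -0.72 (adjusted p = 0.171). Gimap9 averaged 84.1 ± 29.1 in brain libraries and 33.9 ± 25.7 in culture, a difference of 1.57 ± 0.41 (adjusted p = 0.00256). It was lost with edgeR, at 0.98 (adjusted p = 0.0506). Gimap4 averaged 67.0 ± 37.8 in brain libraries and 41.2 ± 52.8 in culture, a difference of 2.06 ± 0.83 (adjusted p = 0.0434). Without culture replicate 3, which had no Gimap4 read, it was 1.11 (adjusted p = 0.184), and edgeR gave 0.31 (adjusted p = 0.764).

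Markers of endothelial cells moved with the brain group. All 10 were called higher in brain libraries than in culture, as were 37.5% of all genes. The endothelial markers summed to 12073 to 84054 normalized counts in brain libraries and 209 to 424 in culture, where Slco1a4, Emcn and Tie1 had no read. The 6 choroid plexus markers were all higher as well, with sums of 246124 to 1059270 in brain libraries and 3.65 to 281 in culture. The T cell markers Cd3e and Trbc1 averaged 9.44 ± 5.55 and 10.2 ± 9.64 in brain libraries (SD, n = 6). The part of these cells in the remaining GIMAP reads of the brain libraries was not tested.

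Levels of different members were compared per kb of exon. In brain libraries Gimap6 led, at 115 ± 46.5 normalized counts per kb, and was above the next member, Gimap9, in 6 of 6 libraries. Gimap9 at 51.2 and Gimap1 at 49.5 could not be ordered, each being above the other in 3 of 6 libraries, and Gimap4 at 36.5, Gimap3 at 19.7, Gimap5 at 11.0, Gimap8 at 5.91 and Gimap7 at 5.11 followed with overlapping ranges. In blood on day 5 Gimap4, at 10318 per kb, and Gimap3, at 10161, each led in 3 of 6 libraries. Gimap6 came next at 5686, then Gimap1 at 2418, Gimap7 at 1997 and Gimap9 at 1985, of which the last pair could not be ordered, then Gimap5 at 916 and Gimap8 at 157. In culture Gimap3 had the highest mean, at 853 per kb, and was above the next, Gimap1 at 487, in 5 of 5 libraries. In culture replicate 5, however, Gimap6 was the highest member, at 851 per kb against 662 for Gimap3. Gimap6 averaged 324 and Gimap7 320 in culture, of which Gimap6 was the higher in 1 of 5 libraries. Then came Gimap5 at 164 and Gimap8 at 90.1, while Gimap4 at 22.4 and Gimap9 at 20.6 came last.

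The make-up of the family was then read as each member's share of the GIMAP sum. Gimap6 gave 37.8% ± 6.06 of the GIMAP sum per kb in brain libraries, 16.1% ± 4.35 in blood on day 5, 15.9% ± 4.12 in blood on day 1 (SD, n = 6 each) and 13.0% ± 9.41 in culture (SD, n = 5). Gimap9 gave 18.2% ± 5.87 in brain libraries, 5.93% ± 0.392 in blood on day 5, 5.78% ± 0.844 in blood on day 1 and 0.909% ± 0.615 in culture. These shares of Gimap6 were 29.7% or more in every brain library and 29.6% or less in every culture library. Gimap4 gave 12.2% ± 4.65 in brain libraries, 31.6% ± 5.17 in blood on day 5, 31.0% ± 11.3 in blood on day 1 and 1.10% ± 1.52 in culture. Gimap3 gave 6.86% ± 2.29 in brain libraries, 30.5% ± 2.27 in blood on day 5, 28.8% ± 10.4 in blood on day 1 and 39.5% ± 10.6 in culture. Gimap3 was thus the largest share in culture and Gimap6 in brain libraries.

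**Figure D3:**
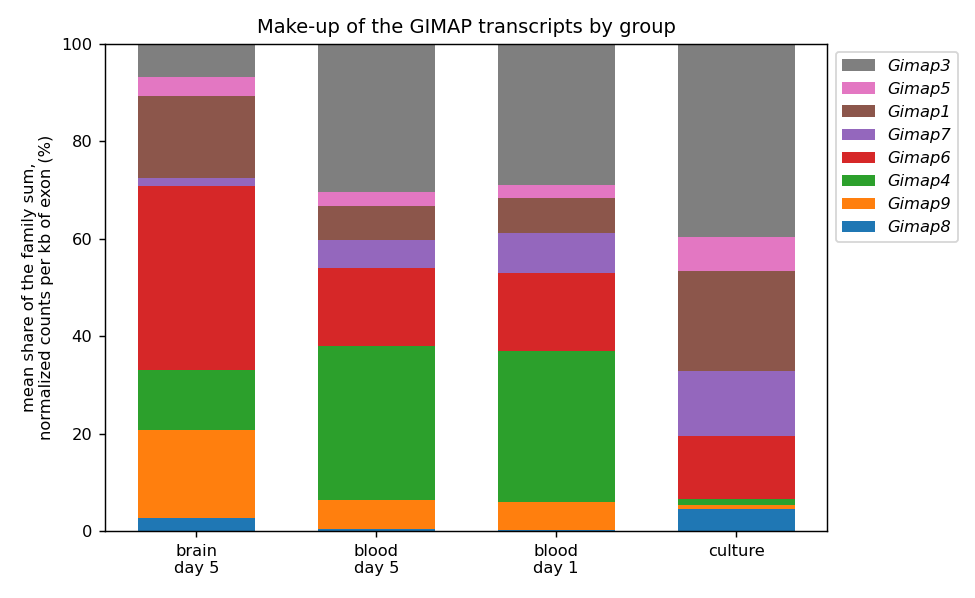
Mean share of each member in the GIMAP sum, in percent of normalized counts per kb of exon, for brain day 5, blood day 5, blood day 1 (6 libraries each) and culture (5 libraries). Gimap6 and Gimap9 take the largest part of the brain bar, Gimap4 and Gimap3 of both blood bars, and Gimap3 and Gimap1 of the culture bar.

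The ratio of Gimap3 to its near copy Gimap5 was 2.07 ± 1.39 per kb in brain libraries, 11.7 ± 2.62 in blood on day 5, 10.6 ± 2.13 in blood on day 1 (SD, n = 6 each) and 5.71 ± 1.82 in culture (SD, n = 5). The lowest ratio was 9.28 in blood on day 5 and 7.78 in blood on day 1, above the highest in culture, 7.30. Of the 2 genes, Gimap3 made up more of the pair in blood than in culture.

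Replicate 6 of blood on day 1 had its own make-up. It was the lowest library of its group for Gimap4, Gimap6, Gimap9, Gimap1 and Gimap7, yet the highest for Gimap5 and close to the highest for Gimap3. Gimap3 gave 48.0% of its GIMAP sum per kb and Gimap4 14.9%, whereas in the other 5 libraries Gimap3 gave 18.1% to 31.2% and Gimap4 27.7% to 48.7%.

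The 2 batches differed for part of the family in blood. In blood on day 5 Gimap6 had 9764 to 12492 normalized counts in batch 2 and 25786 to 33068 in batch 1, and in culture 1077 to 2976 in batch 2 and 451 to 713 in batch 1. Its log2 difference from culture on day 5 was 2.67 in batch 2 and 5.74 in batch 1, and on day 1 it was 3.14 in batch 2 and 5.75 in batch 1. The interaction of batch and group, batch 2 minus batch 1, was -3.07 on day 5 (limma, adjusted p = 0.00415) and -2.61 on day 1 (adjusted p = 0.00962). Gimap1 and Gimap5 passed for day 5, with interactions of -1.94 (adjusted p = 0.0284) and -1.74 (adjusted p = 0.0428). These 4 were among 48 interactions computed for members, and 8.42% of genes passed for blood on day 5 against culture and 9.63% for day 1. No member passed in the other 4 comparisons, where 3.41% of genes passed for brain against culture, 1.05% for brain against blood on day 5, 1.91% for brain against blood on day 1 and 0.144% between the blood days. In both batches Gimap6, Gimap1 and Gimap5 were higher in blood than in culture, by at least 1.32 on the log2 scale.

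**Figure D4:**
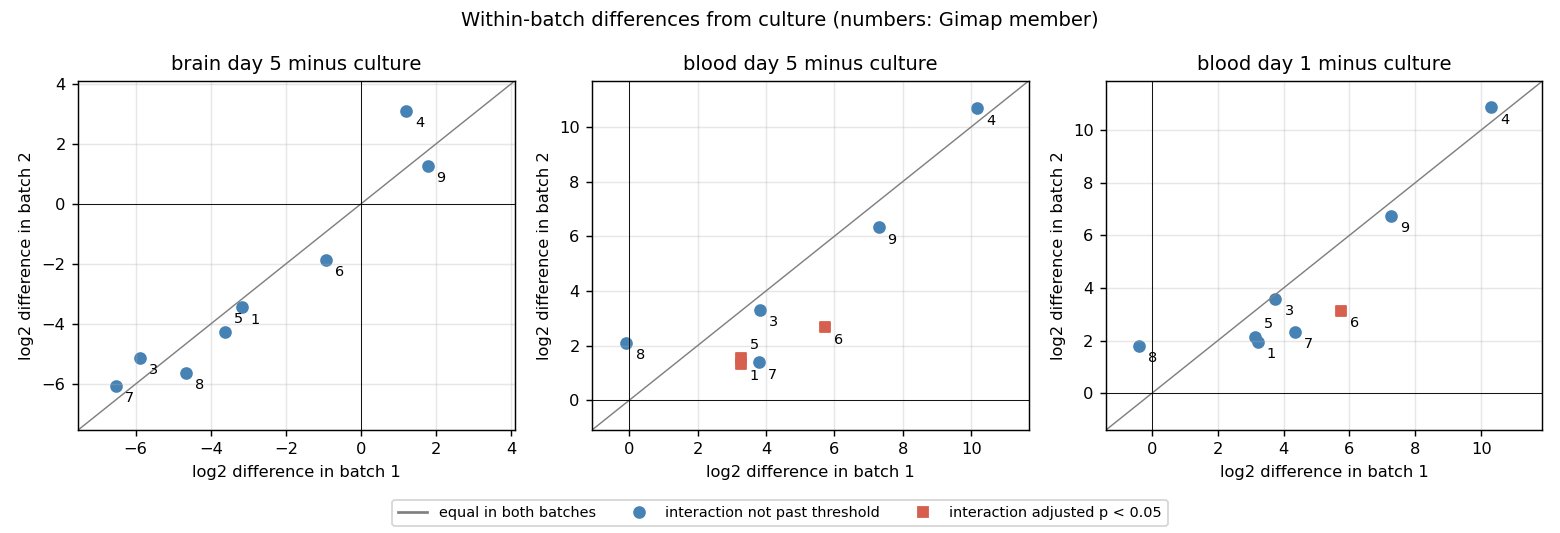
Log2 difference from culture within batch 2 against that within batch 1 for each member, in brain day 5, blood day 5 and blood day 1, with a line where both are equal and squares where the batch interaction passed an adjusted p of 0.05. Gimap6 lies below the line in both blood panels, and Gimap1 and Gimap5 do so as squares on day 5.

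The locus was then followed outward to the 5 nearest protein-coding genes on each side, of which 8 were tested. In brain libraries against culture 7 of these 8 were called higher, against 37.5% of all genes. Among them were Rarres2, by 9.83, and AI854703, by 3.62, on the Gimap8 side. On the Gimap3 side Tmem176b rose by 7.59 and Gpnmb by 13.06 (log2, limma). Zfp775 was not called, at 1.42 (adjusted p = 0.366). None of the flanking genes tested was called lower there. Brain libraries also held microglial and choroid plexus markers, as given above, and the part of such cells in these values was not tested. In blood on day 5 against culture AI854703 rose by 4.59, Tmem176b by 5.35, Tmem176a by 6.27 and Gpnmb by 5.71. Inside the cluster Gimap1os, the antisense partner of Gimap1, had log2 differences from culture of -4.87 in brain libraries, 3.02 in blood on day 5 and 2.88 in blood on day 1. These go the way of most members. With no stated strand setting, however, its reads cannot be told apart from those of Gimap1 over the 1107 exonic bases they share.

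**Figure D5:**
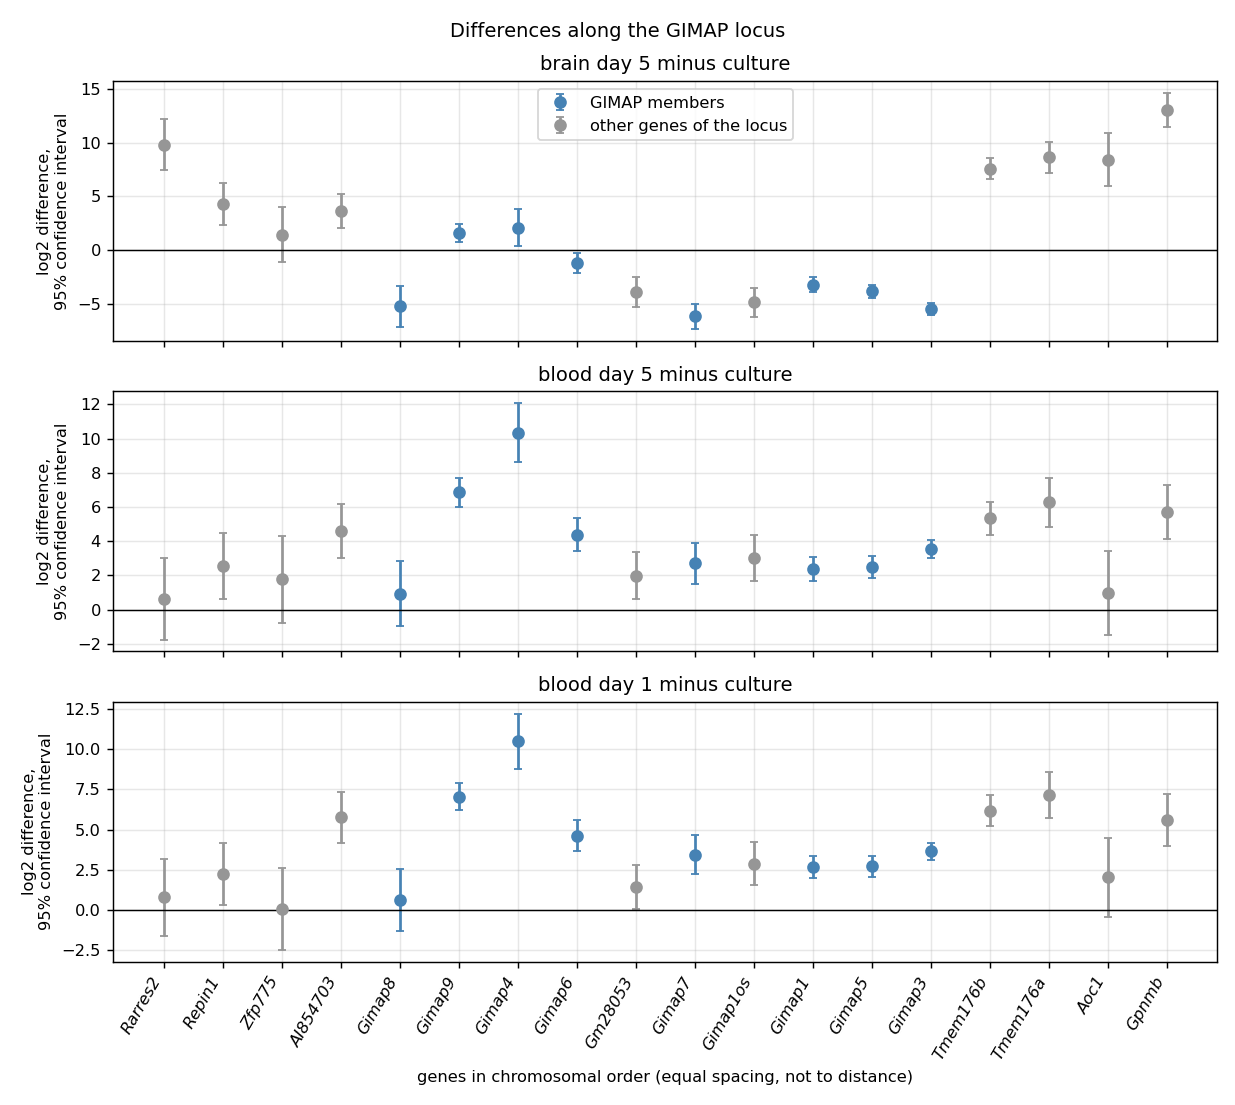
Log2 difference from culture with its 95% confidence interval for the GIMAP members and the other genes of the locus tested, in chromosomal order with equal spacing. In brain libraries the flanking genes are at or above 0 and 6 of the 8 members below it, and in blood both members and several flanking genes are above it.

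Other genes tied to the family's function were read from a list of 10 binding partners and regulators of cell survival, of which 9 were tested. Against culture, 2 rose and 3 fell in brain libraries, and 2 rose and 3 fell in blood on day 5. In blood on day 1, 2 rose and 2 fell. Of all genes, 37.5% rose and 11.7% fell in brain libraries. In blood 19.6% rose and 11.4% fell on day 5, and 18.1% rose and 14% fell on day 1. The rises in the list were thus below the share over all genes in brain libraries and near it in blood. Gabarapl2, the autophagy protein that binds Gimap6, rose in all 3, by 0.95, 1.45 and 2.55 in that order (log2, limma, adjusted p of at most 0.0195). Bcl2, the survival protein, fell in all 3, by 3.82, 1.32 and 1.95 in the same order (adjusted p of at most 0.00992). Bak1, which permeabilizes mitochondria, fell in all 3 as well, by 2.34, 3.01 and 2.46 (adjusted p of at most 0.0466). Bcl2l1, which encodes the survival protein Bcl-xL, rose by 1.25 in brain libraries (adjusted p = 0.0219) and 2.26 in blood on day 1 (adjusted p = 0.00037), and Mcl1, another survival protein, rose 2.84-fold in blood on day 5 (adjusted p = 0.0013). Bax, a partner of Bak1 in cell death, fell by 0.96 in brain libraries (adjusted p = 0.0261), and Gabarap, a relative of Gabarapl2, fell by 1.31 in blood on day 5 (adjusted p = 0.0116). The Bak1 call held in 15 of 24 alternatives in brain libraries, 21 of 24 in blood on day 5 and 10 of 24 in blood on day 1. Among the losses, it was lost without culture replicate 2 in all 3 comparisons. Within batch 2 the Bak1 differences were -1.07, -0.12 and 0.29 in the same order. Its interaction of batch and group passed for blood on day 5 (limma, adjusted p = 0.0343) and on day 1 (adjusted p = 0.0391). With TMM factors Gabarapl2 and Bcl2l1 in brain libraries were 0.57 and 0.88 (adjusted p = 0.167 and 0.102), with equal library totals Bcl2 in blood on day 5 was -0.96 (adjusted p = 0.116), and without culture replicate 5 Bax in brain libraries was -0.83 and Gabarap in blood on day 5 was -0.84 (adjusted p = 0.0766 and 0.0555). The list's median log2 difference was -0.10 in brain libraries, -0.10 in blood on day 5 and -0.29 in blood on day 1.

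The interferon-inducible GTPases, another family of immune GTPases, served as a comparison, with 12 of 18 in the table and tested. Against culture, 5 rose and 3 fell in brain libraries, 5 rose in blood on day 5 and 6 rose in blood on day 1. Of all genes, 37.5% rose and 11.7% fell in brain libraries, 19.6% rose in blood on day 5 and 18.1% on day 1. The rises in brain libraries were thus near the share over all genes. The medians of this list were 0.51, 1.45 and 1.70, against -3.54, 3.13 and 3.56 for the GIMAP members. In brain against blood on day 5, 1 of the 12 was higher, against 33.6% of all genes, and 5 were lower, against 14.3%. The median of the 12 was -0.62, whereas the GIMAP median was -6.26. Of 14 genes of lymphocyte quiescence and recirculation, 8 were higher than in culture in brain libraries, 12 in blood on day 5 and 11 in blood on day 1. In brain libraries 2 were lower. Over all genes 37.5%, 19.6% and 18.1% were higher in that order, and 11.7% were lower in brain libraries. S1pr1, the receptor that lets lymphocytes leave tissues, rose by 8.49 in brain libraries, 9.37 in blood on day 5 and 9.04 in blood on day 1, so it stood high in brain libraries where the GIMAP members were low.

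The genes most like the family profile were found by the root mean square difference over the 23 libraries, among 13225 genes, between each gene's centred log2 values and the median of the members. Nearest were Stat4, a transducer of IL-12 signals, at 0.87, Il27ra, the IL-27 receptor, at 0.90, Stx11, a syntaxin of cytotoxic granule release, at 0.90, Hsd11b1, at 0.92, and Trbv31, a T cell receptor segment, at 1.00. Gpr18, Ccr2, Gpr171, Rasgrp2 and Gimap1os followed, at 1.01 to 1.14, of which Gimap1os overlaps Gimap1 and may share its reads. Among the members Gimap5, at 0.48, and Gimap1, at 0.62, were closest to the family profile, and Gimap4, at 3.07, was farthest. Stat4 averaged 11.1 normalized counts in brain libraries, 2884 in blood on day 5, 2560.2 in blood on day 1 and 409 in culture, the same order of brain, culture and blood as the members' sum. All libraries share the groups and the scaling, so this likeness is a description.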

How the data were processed

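RNA sequencing reads (polyA libraries, 150 bp pairs) went through fastp and the aligner HISAT2 2.0.5 with the mm10 build, per the submitters' processing notes. No source used here names the counting tool, its annotation or its strand setting. The deposited signal values, which the authors call normalized counts, are gene read counts divided by 1 size factor per library. Multiplied by that factor, 100% of values per library came out as whole reads (tolerance 0.1 read), and median-of-ratios factors over 7556 genes without a zero matched them. The members and gene lists were chosen with earlier results of these data known.

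The test was limma 3.58.1 (R 4.3.3, trend and robust eBayes) on log2(value + 1), with all 23 libraries, group and batch in 1 model. Genes with at least 10 in at least 5 libraries, 15268 in all, were tested two-sided, with Benjamini-Hochberg adjustment over all of them and a threshold of 0.05. Rises and falls are said only of calls. Named were all 8 members, up to 3 genes per list and comparison with the largest called difference, the 5 nearest protein-coding genes on each side, and the 10 genes nearest the family profile whose highest group mean was 100 or more. Bcl2, Bak1, Gabarapl2, Bax, Gabarap, S1pr1 and single markers were added across comparisons after their values were seen.

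Alternatives used the recovered whole reads in edgeR 4.0.16 (quasi-likelihood test with TMM), which called 7530 genes between brain and culture, 4600 between blood day 5 and culture and 4795 between blood day 1 and culture, and in DESeq2 1.42.0. Others changed the scaling, the filter, the pseudocount, the batch term and the libraries used. The limma procedure was checked on simulated data. Levels per kb used GENCODE M21 exon lengths, found for 19931 of 19945 symbols. Promoters came from RefSeq (GRCm38.p6). Map1lc3b, 6 interferon-inducible GTPases, Il13 and Areg were not analysed here. The number of libraries and reads limits precision as the SDs and SEs show.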

Additional observations from a re-analysis of the deposited data

Results flagged for a closer look

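In 3 of the 32 groups of libraries examined for a single library far from the others, 1 library stood apart, where chance flags about 1 in 20. Gimap1 had 3170.55 normalized counts in culture replicate 4, against 984 to 1214 in the other 4 culture libraries. Gimap6 had 2975.51 in culture replicate 5, the highest of its group. Gimap4 had 14903.9 in blood day 5 replicate 6, the lowest of its group, where the other 5 had 19024 to 21067.

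Effects differed between batches in 4 of 48 interactions. Batch 2 minus batch 1, the log2 difference of Gimap6 from culture changed by -3.0733 in blood on day 5 and -2.6124 in blood on day 1. For blood on day 5 it changed by -1.9375 for Gimap1 and by -1.7382 for Gimap5. Both culture libraries that stood apart, Gimap1 in replicate 4 and Gimap6 in replicate 5, belong to batch 2, which holds only these 2 culture libraries. The part of depth, which was 27.8 to 58.1 M reads in batch 2 and 11.6 to 16.9 M in batch 1, was not tested.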

How the results depend on the processing

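Of 1176 recomputed differences of the 48 member values, 1141 kept their direction and their side of the threshold, 23 kept the direction but missed the threshold, and 12 changed sign, none of them past the threshold before or after. For day 5 against day 1 in blood these were, with equal library totals, Gimap3 at 0.16, Gimap4 at 0.11, Gimap5 at 0.021, Gimap6 at 0.018 and Gimap9 at 0.057, and within batch 1 Gimap1 at 0.042, Gimap3 at 0.065, Gimap5 at 0.13 and Gimap9 at 0.017, while Gimap4 ran from -0.48 to 0.038 with 1 library left out. Gimap8 within batch 1 was -0.078 in blood on day 5 and -0.38 in blood on day 1 against culture. Bak1 in blood on day 1 against culture was 0.29 within batch 2. The causes were not tested. All 23 losses were between brain and culture, 13 for Gimap4, 7 for Gimap6 and 3 for Gimap9. With each library left out in turn, and in every other alternative run, 7 members were called between blood and culture on each day, 8 between brain and blood, and 0 between the blood days, while 6 to 8 were called between brain and culture. Whether replicate numbers pair the libraries stayed unsettled. Of 33 same-numbered pairs 2 had a correlation of deviations over 0.1 (range -0.104 to 0.189). A library correlated best with its own number in 35 of 66 cases, where an even choice within the batch would give 23. That is a hint of pairing in the data that the labels do not give. With the replicate block, 7 members were called between blood and culture, 7 between brain and culture and 8 between brain and blood, and Gimap6 between brain and culture was -1.11 (limma adjusted p = 0.0635). Low counts limit Gimap7 and Gimap8 in brain libraries, with 117 and 138 reads, and Gimap4 and Gimap9 in culture, with 148 and 164.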
